A study of Homo sapiens with 12 samples.

Results

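Chromatin marks were described at 7 human genes of bile acid synthesis and transport: CYP7A1, CYP8B1, CYP27A1, NR1H4, NR0B2, SLC10A1 and ABCB11. The genes were chosen by their function, and their members in the data were all ChIP-seq peaks with at least 1 bp within 30 kb of a gene's interval on GRCh37 (hg19). There were 198 such peaks of 273551 on chromosomes 1 to 22 and X: 11 of 24446 H3K4me3 peaks, 54 of 66513 H3K27ac peaks and 133 of 182592 H3K4me1 peaks. The cells were HepG2, an established human liver cancer line labelled as hepatocellular carcinoma, grown without treatment. The study used the marks to rank candidate variants, which are not analysed here. It had 12 libraries, 3 for each mark and 3 controls, and the peaks of a mark were deposited as 1 list that pooled its 3 replicates. The control was titled as input but its antibody label named an anti-mouse IgG, and it gave no values here. With 1 pooled list per mark there was no spread between replicates, so the values below are descriptions with no test, and the depth behind them is unknown.

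Hepatocytes make bile acids from cholesterol, secrete them into bile and take them up again from portal blood. CYP7A1 catalyses the rate-limiting step of the classic pathway, and CYP8B1 adds the hydroxyl group that directs synthesis to cholic acid. CYP27A1 is the mitochondrial sterol 27-hydroxylase that opens the alternative pathway and oxidises the side chain. NR1H4 encodes FXR, the nuclear receptor that binds bile acids, and NR0B2 encodes SHP, a receptor-like repressor that FXR induces and that lowers CYP7A1 and CYP8B1 transcription. SLC10A1 (NTCP) is the sodium-dependent uptake carrier of the basolateral membrane, and ABCB11 (BSEP) the export pump of the canalicular membrane. H3K4me3 marks mainly active promoters, H3K27ac active promoters and enhancers, and H3K4me1 enhancers and the flanks of promoters. RNA was not measured, so nothing below is an expression level.

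The 7 starts fell into separate patterns of marks. NR0B2, NR1H4 and CYP27A1 had broad H3K4me3 and strong H3K27ac over the start, while CYP8B1 had H3K27ac and a wide H3K4me1 peak with no H3K4me3. CYP7A1 had only weak, short peaks beside its start, SLC10A1 had H3K4me1 alone, and ABCB11 had none of the 3 marks. The RefSeq promoter table at hand held 4 of the 7 genes. Of these, NR1H4 had its listed start 29494 bp inside the gene. The 3 shown are those whose listed start was the outer end of the gene. Each is the 250 bases before the start (GRCh38.p14), 5′ to 3′ in the direction of transcription, with CpG dinucleotides in capitals: CYP27A1 at chr2:218781897-218782146 (+), SLC10A1 at chr14:69797242-69797491 (-) and ABCB11 at chr2:169031325-169031574 (-).
CYP27A1: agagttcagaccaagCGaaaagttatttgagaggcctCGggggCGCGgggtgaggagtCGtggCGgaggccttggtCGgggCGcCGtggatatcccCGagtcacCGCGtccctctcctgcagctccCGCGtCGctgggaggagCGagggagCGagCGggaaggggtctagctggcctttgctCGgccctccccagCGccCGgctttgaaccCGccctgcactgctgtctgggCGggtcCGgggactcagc
SLC10A1: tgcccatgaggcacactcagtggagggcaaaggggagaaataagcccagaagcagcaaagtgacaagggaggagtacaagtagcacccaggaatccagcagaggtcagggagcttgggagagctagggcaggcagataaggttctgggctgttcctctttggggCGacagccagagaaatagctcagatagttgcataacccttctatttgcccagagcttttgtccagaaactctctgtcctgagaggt
ABCB11: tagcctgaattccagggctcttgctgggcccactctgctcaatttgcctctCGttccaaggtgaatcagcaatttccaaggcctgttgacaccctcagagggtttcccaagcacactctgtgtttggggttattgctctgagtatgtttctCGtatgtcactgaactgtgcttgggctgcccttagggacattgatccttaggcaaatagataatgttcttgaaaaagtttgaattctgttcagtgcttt

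The CYP27A1 promoter had 24 CpG and 68.8% G or C, that of SLC10A1 1 CpG and 52.8%, and that of ABCB11 2 CpG and 46.4%. On GRCh37, the start of CYP27A1 was inside H3K4me3 and H3K27ac peaks and that of SLC10A1 inside an H3K4me1 peak alone. That of ABCB11 had none of the 3 marks. Positions were not converted between builds, so whether the GRCh38.p14 bases shown lie under these peaks was not tested. The gene length of ABCB11 differed by 7550 bp between the builds' annotations. Over the 35116 promoters of the table the medians were 11 CpG and 58.0%. As many CpG as CYP27A1 were found in 23.7% of promoters, and as many as SLC10A1 in 93.9%. The NR1H4 promoter at its listed inner start, not shown, had 2 CpG and 42.0% G or C. With so few promoters, no relation between CpG and marks can be tested.

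The same 250 bases were searched on both strands for motifs of factors known to act on bile acid genes. The C/EBP motif TTGCNNAA occurred once in SLC10A1, from base 59 before the start, and once in ABCB11, from base 52 on the opposite strand. It occurred in 9.05% of all promoters. The LRH-1 motif TCAAGGNCA (1.01% of promoters), the HNF4A motif CAAAGTCCA (0.325%), the HNF1 motif GTTAAT (6.23%), the FOXA core TGTTTAC (2.98%) and the direct repeat DR1 of AGGTCA spaced by 1 base (0.0171%) had no match in these 3 promoters, and no 2 matches overlapped. The FXR motif IR1, an inverted repeat of AGGTCA spaced by 1 base, had an exact match in 0 of the 35116 promoters. Its closest match differed at 2 of 12 fixed bases in ABCB11, from base 96 before the start, and also at 2 in SLC10A1, from base 149, whereas it differed at 5 in CYP27A1. A match within 2 bases occurred in 0.945% of promoters. The NR1H4 promoter at its listed inner start, not shown, held 1 HNF1 match, from base 53 before that start. Its closest IR1 match differed at 4 bases. A match describes the letters of a window and is no sign of binding.

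Counted at 1000 bp to either side, H3K4me3 was present at 4 of 7 starts, H3K27ac at 5 and H3K4me1 at 6. Tiles of the same 2001 bp over the whole genome held H3K4me3 in 3.01% of cases, H3K27ac in 6.05% and H3K4me1 in 14.3%, but most such tiles hold no gene start. The start base itself was inside an H3K4me3 peak at 3 genes, an H3K27ac peak at 4 and an H3K4me1 peak at 3. The positions of the peaks beside the starts are drawn to 1 scale in the plot of 6 kb to either side.

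**Figure D1:**
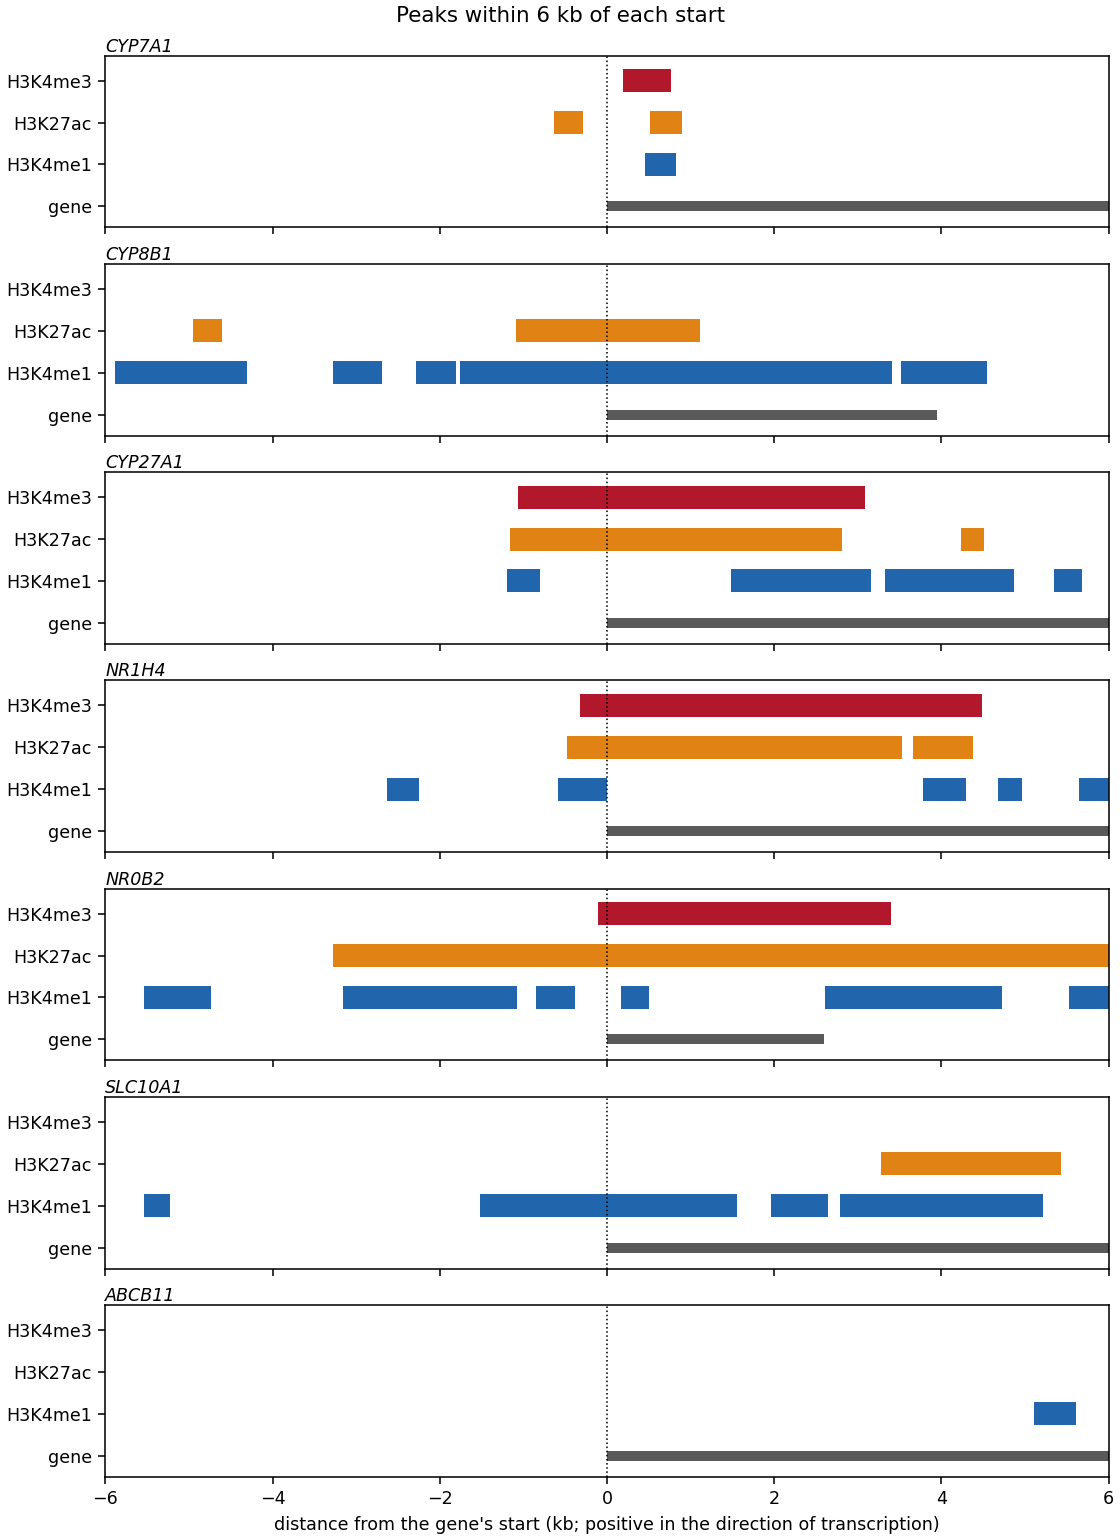
Peaks of H3K4me3 (red), H3K27ac (orange) and H3K4me1 (blue) within 6 kb of the start of each gene, with the distance from the start in kb on the x axis and the gene in grey. NR0B2, NR1H4 and CYP27A1 have all 3 marks with H3K4me1 mainly to the sides, CYP8B1 and SLC10A1 have H3K4me1 across the start, and ABCB11 has no peak within 5 kb.

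CYP7A1 (NCBI Gene 1581, chromosome 8, 59402737 to 59412720, minus strand) had weak marks at its start and stronger ones beyond its other end. Its H3K4me3 peak there lay 187 to 767 bp past the start, was 581 bp wide and had a signal value of 1.60 (0.961th percentile). Signal values are the authors' own, and a percentile is the share of the same list at or below the value. The −log10 q-value of that peak was 1.34, and only 0.196% of the list had as low a −log10 p-value. H3K27ac formed 2 short peaks, of 344 bp from 635 to 292 bp before the start (signal value 2.41, 34.8th percentile) and of 388 bp from 509 to 896 bp past it (2.68, 41.9th percentile). H3K4me1 formed 1 peak of 372 bp, 460 to 831 bp past the start (3.07, 37.7th percentile). The start base itself was in none of these peaks, and the 29365 bp upstream of them, to the edge of the window, held no peak of any mark.

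The stronger peaks near CYP7A1 were downstream of the gene. An H3K27ac peak of 3763 bp (59389331 to 59393093) had a signal value of 10.1 (77.5th percentile), with its summit 21.8 kb past the start. A narrow H3K4me3 peak of 803 bp with signal value 3.53 (25.6th percentile) lay within it, so by the rule used here it counted as promoter-like although its H3K4me3 was weak. Further on, H3K27ac peaks of 1296 and 1264 bp had signal values of 7.83 and 5.20, and the H3K4me1 peak at 59381717 to 59383678 reached the 94.2nd percentile (signal value 7.28). RefSeq (GRCh38.p14) names UBXN2B as the next protein-coding gene on that side, and whether these peaks belong to it was not tested.

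CYP8B1 (Gene 1582, chromosome 3, 42913684 to 42917633, minus strand) was the only gene of the 7 with H3K27ac over its start and no H3K4me3 anywhere in its window. The H3K27ac peak ran from 1083 bp before to 1114 bp past the start, with signal value 7.80 (73.1st percentile) and −log10 q-value 125.6. An H3K4me1 peak of 5171 bp ran from 1756 bp before the start to 3414 bp past it, over most of this gene of 3950 bp, with signal value 8.97 (97.8th percentile). The summits of these peaks were 471 and 444 bp past the start. Of the 1000 H3K27ac peaks closest in signal value (7.47 to 8.13), 40.8% overlapped H3K4me3, as did 54.7% of the 1000 closest in width. A lack of H3K4me3 was therefore common at this strength over the whole list. These peaks lay anywhere in the genome, and the share among H3K27ac peaks over gene starts was not computed. The nearest H3K4me3 peak was 70403 bp away.

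A large distal element stood downstream of CYP8B1. Its H3K27ac peak of 5701 bp (42892674 to 42898374, summit 20.9 kb past the start) had signal value 15.8 (84.4th percentile), above that of the peak at the start. The H3K4me1 peak beneath it was 6688 bp wide and reached signal value 10.1 (98.9th percentile). The H3K27ac peaks of the window numbered 6 and were all enhancer-like, that is, they overlapped H3K4me1 and no H3K4me3. RefSeq gives ACKR2 as the neighbour on this side and ZNF662 on the other.

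CYP27A1 (Gene 1593, chromosome 2, 219646472 to 219680016, plus strand) had a full promoter pattern. Its H3K4me3 peak was 4144 bp wide, from 1059 bp before to 3084 bp past the start, with signal value 33.1 (65.7th percentile). The H3K27ac peak over the start, of 3973 bp, had signal value 44.0 (98.0th percentile), the highest of the 7 starts, and its summit lay 101 bp past the start. H3K4me1 stopped 796 bp before the start and resumed 1481 bp past it, with signal values of 3.84 and 3.02 for the peaks on either side. No H3K4me1 peak thus lay over the start itself.

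Upstream of CYP27A1 lay the strongest enhancer-like H3K27ac peak of the 7 windows. It was 7514 bp wide (219616884 to 219624397), with its summit 26.1 kb before the start, signal value 32.3 (94.9th percentile) and a width above 98.9% of the list. H3K4me1 peaks with signal values of 10.2 and 8.66 lay beneath it, and next to them another of 7410 bp (8.86). Within the gene, an H3K27ac peak of 2807 bp with summit 24.6 kb past the start had signal value 8.34 (74.2nd percentile). The window held 31 H3K4me1 peaks, the most of the 7, of which 22 overlapped neither other mark. TTLL4 is the upstream neighbour in RefSeq and PRKAG3 the downstream one, and the peaks were not assigned between them.

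NR1H4 (Gene 9971, chromosome 12, 100867551 to 100957645, plus strand) had the widest H3K4me3 peak of the 7 windows, and it lay almost wholly inside the gene. It was 4816 bp wide, from 325 bp before to 4490 bp past the start, with signal value 30.0 (62.9th percentile) and summit 2122 bp past the start. H3K27ac of 4006 bp followed it, from 474 bp before to 3531 bp past the start, with signal value 27.3 (92.6th percentile) and summit at 1817 bp. H3K4me1 ended 5 bp past the start (signal value 5.54, 84.7th percentile) and resumed at 3775 bp. A stretch of 3769 bp under the H3K4me3 peak was therefore free of H3K4me1, the longest under the 4 H3K4me3 peaks at starts.

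The rest of NR1H4 was thinly marked. Inside the gene, 6 H3K27ac peaks with summits 10989 to 82375 bp past the start had signal values between 1.75 and 4.04, and the longest stretch with no peak was 33437 bp. RefSeq also lists a start 29494 bp inside the gene, counted from its outer end in GRCh38.p14. On GRCh37, the interval from 20 to 37 kb past the start held 2 H3K4me1 peaks, at 24459 to 24798 bp (signal value 2.54) and at 29065 to 29751 bp (2.60), and no H3K27ac or H3K4me3. Positions were not converted between builds, so whether the inner start lies in either peak was not tested. Past the gene's end, H3K4me3 of 2437 bp with signal value 23.8 and H3K27ac with 9.43 had their summits 100.2 and 100.1 kb past the start. GAS2L3 is the RefSeq neighbour on that side.

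NR0B2 (Gene 8431, chromosome 1, 27237975 to 27240567, minus strand) had the strongest H3K4me3 of the 7 starts and the largest share of its window covered by each mark. Its H3K4me3 peak covered the whole gene of 2593 bp, from 104 bp before to 3402 bp past the start, with signal value 61.6 (95.0th percentile). The H3K27ac peak of 9996 bp reached from 3276 bp before to 6719 bp past the start, with signal value 36.3 (96.2nd percentile) and a width above 99.5% of the list. H3K4me1 lay to both sides, with signal values of 7.37 upstream (1073 to 3161 bp before the start) and 7.65 downstream (2607 to 4723 bp past it). The only H3K4me1 peak wholly inside the H3K4me3 peak was 340 bp wide, and its signal value of 1.75 was among the lowest of the list (0.0997th percentile).

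Of the 11 H3K4me3 peaks of all windows, 4 were around NR0B2. The other 3 had signal values of 46.4, 35.4 and 46.0 and summits 8.00 kb before and 13.9 and 24.1 kb past the start, each under an H3K27ac peak (signal values 28.4, 29.6 and 25.4). NR0B2 overlaps NUDC in RefSeq and has KDF1 and GPATCH3 as neighbours, so marks in this window cannot be told apart by gene. Upstream, an enhancer-like H3K27ac peak of 4818 bp (27262738 to 27267555, summit 24.6 kb before the start) had signal value 23.6 (90.3rd percentile) over an H3K4me1 peak with signal value 10.3 (99.1st percentile), the highest H3K4me1 value of the 7 windows.

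The transporter genes SLC10A1 and ABCB11 carried fewer marks at their starts than the receptor genes NR1H4 and NR0B2. SLC10A1 (Gene 6554, chromosome 14, 70242552 to 70264006, minus strand) had an H3K4me1 peak of 3071 bp across its start, from 1513 bp before to 1557 bp past it, with signal value 7.85 (95.8th percentile) and no overlap with H3K27ac or H3K4me3. Of the 1000 H3K4me1 peaks closest in signal value (7.74 to 7.96), 76.5% overlapped H3K27ac, and of those closest in width 79.6%. SLC10A1 was thus among the minority at this strength that lacked acetylation. The nearest H3K27ac began 3279 bp past the start, inside the gene, in a peak of 2149 bp with signal value 3.23 (51.1st percentile), over an H3K4me1 peak with 7.20.

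Upstream of SLC10A1, an enhancer-like H3K27ac peak of 3049 bp (70274840 to 70277888, summit 11.9 kb before the start) had signal value 14.2 (82.7th percentile). The H3K4me1 peak under it was 5844 bp wide, with signal value 8.32 (96.8th percentile). The strongest peaks of the window were at its far end, downstream of the gene, where H3K4me3 of signal value 75.9 (99.2nd percentile) and H3K27ac of 46.3 (98.3rd percentile) had summits 29.9 kb past the start. RefSeq names SRSF5, a splicing factor gene, as the downstream neighbour, and whether these peaks belong to it was not tested.

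ABCB11 (Gene 8647, chromosome 2, 169779448 to 169887832, minus strand) was nearly bare. In a window of 168.4 kb it had 0 H3K4me3, 2 H3K27ac and 3 H3K4me1 peaks, and none was within 5 kb of the start. The nearest to the start was an H3K4me1 peak of 504 bp from 5107 to 5610 bp past it, with signal value 2.82 (27.8th percentile). The only acetylated element was inside the gene, where H3K27ac of 610 bp (169868982 to 169869591, summit 18.6 kb past the start) had signal value 4.23 (60.0th percentile) and −log10 q-value 53.0, beside a weaker H3K27ac peak of 433 bp (2.08). Both lay over an H3K4me1 peak of 2024 bp (4.12, 66.4th percentile). The following 104307 bp, through the rest of the gene and beyond, held no peak. The nearest H3K4me3 peak was 140.2 kb from the start, beyond the other end of the gene.

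**Figure D2:**
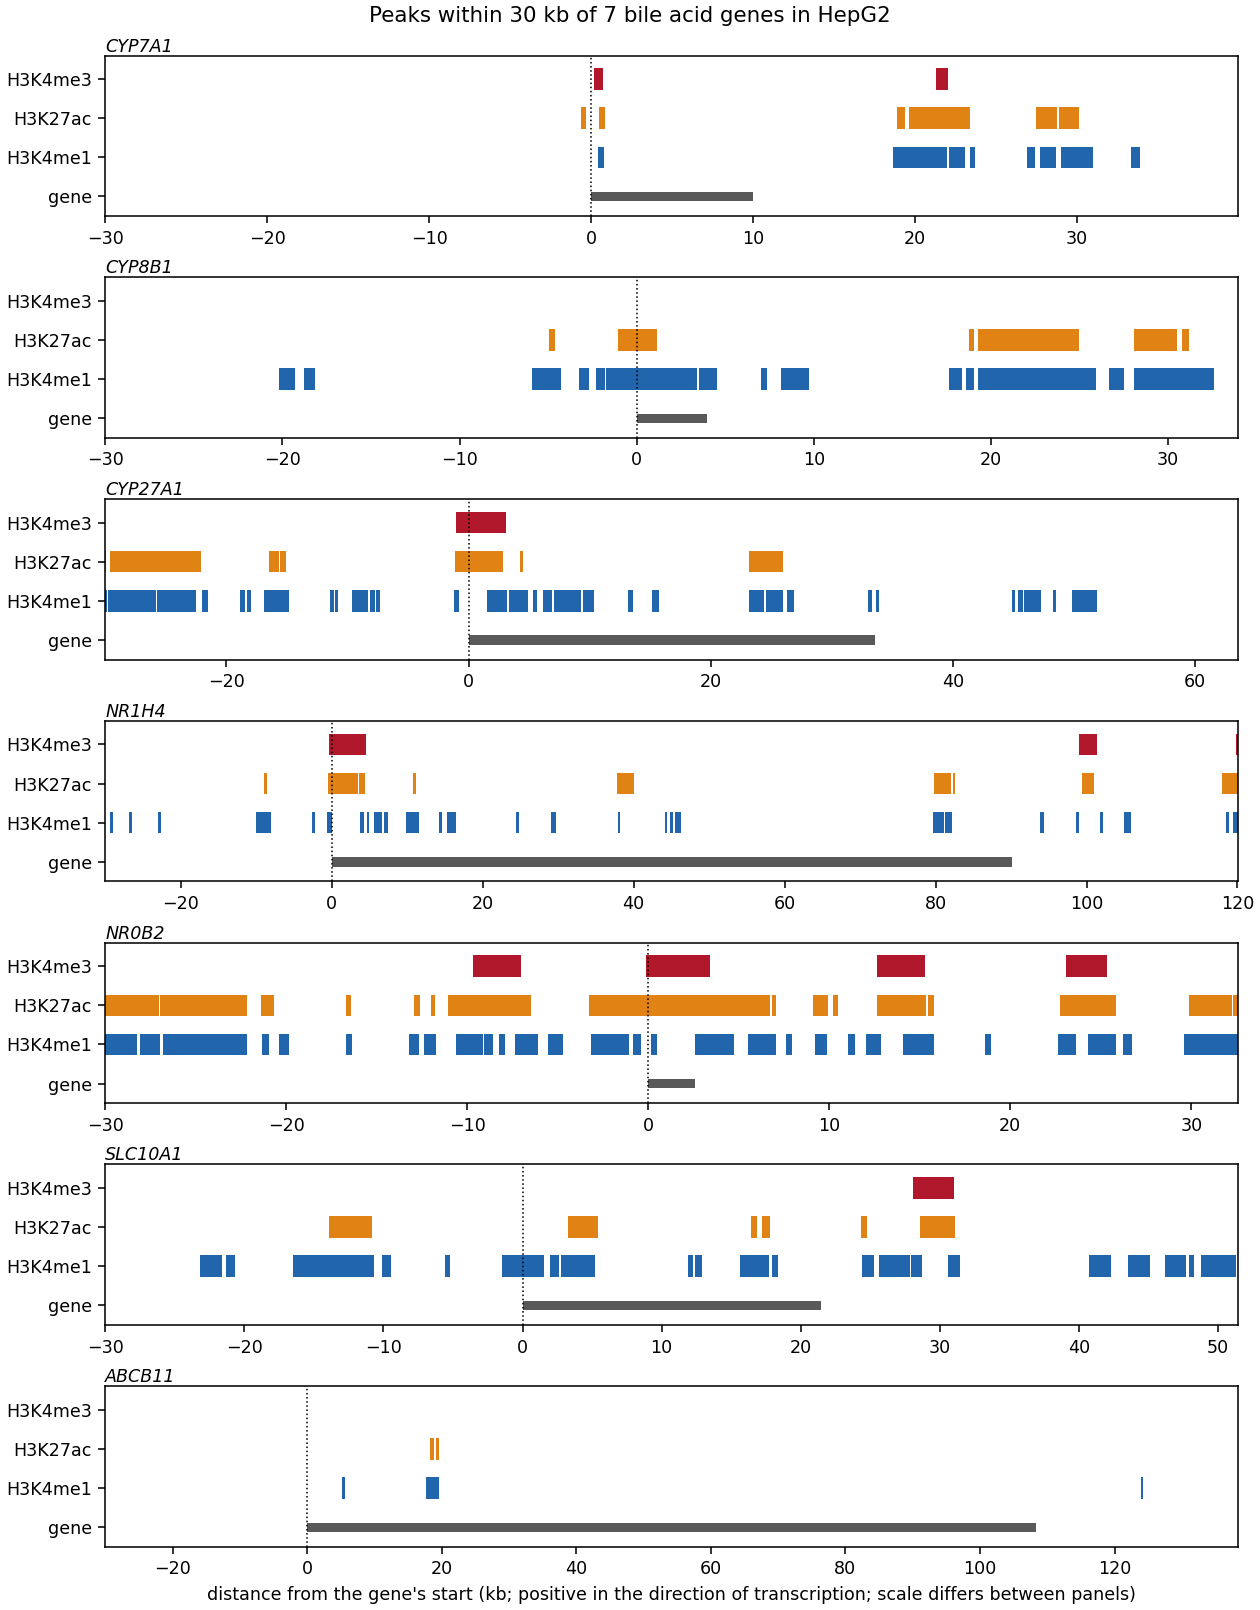
All peaks within 30 kb of the 7 genes, in 1 panel a gene with its own scale, with the distance from the start in kb on the x axis, H3K4me3 in red, H3K27ac in orange, H3K4me1 in blue and the gene in grey. NR0B2 has peaks across its whole window, CYP7A1 has most of its peaks downstream of the gene, and ABCB11 has 5 peaks in 168.4 kb.

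The genes thus differed in how much of their surroundings was marked. Over the 7 windows together, 0.690 Mb in all, H3K4me3 covered 3.92% of bases, H3K27ac 13.4% and H3K4me1 21.4%, against 1.49%, 3.04% and 6.47% of the genome. The NR0B2 window alone held 34007 of the 92720 bp under H3K27ac and 11045 of the 27080 bp under H3K4me3. These totals include peaks away from the starts, which were not assigned to a gene. For H3K27ac the order was NR0B2 (54.3%), CYP8B1 (17.7%), CYP27A1 (17.0%), SLC10A1 (11.1%), CYP7A1 (10.8%), NR1H4 (9.18%) and ABCB11 (0.619%). Neighbours in this order cannot be separated, as there is no spread to set beside the differences. As many bases under H3K27ac were found in 0.157% of genomic tiles of the same length for NR0B2, 4.64% for CYP8B1, 4.63% for CYP27A1, 9.04% for SLC10A1, 9.32% for CYP7A1, 11.3% for NR1H4 and 43.9% for ABCB11. The tiles include regions without genes.

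For H3K4me1 the order differed only in CYP27A1 and SLC10A1, which are neighbours in it. NR0B2 (49.8%), CYP8B1 (39.8%), SLC10A1 (38.0%) and CYP27A1 (32.5%) stood above CYP7A1 (12.9%), NR1H4 (12.1%) and ABCB11 (1.68%). As much H3K4me1 as at SLC10A1 was found in 3.01% of tiles of its length, and as much as at CYP27A1 in 4.47%. For ABCB11, 49.9% of tiles of its length had as much H3K4me1, so its window was close to the middle of these tiles. H3K4me3 covered 17.6% of the NR0B2 window, 5.02% of that of NR1H4, 4.43% of that of CYP27A1, 3.64% of that of SLC10A1, all of it at the downstream end, and 1.98% of that of CYP7A1. The peak at the start made up 3507 of 11045 bp at NR0B2, 4816 of 7538 bp at NR1H4 and 581 of 1384 bp at CYP7A1. At CYP27A1 it was the only H3K4me3 peak.

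**Figure D3:**
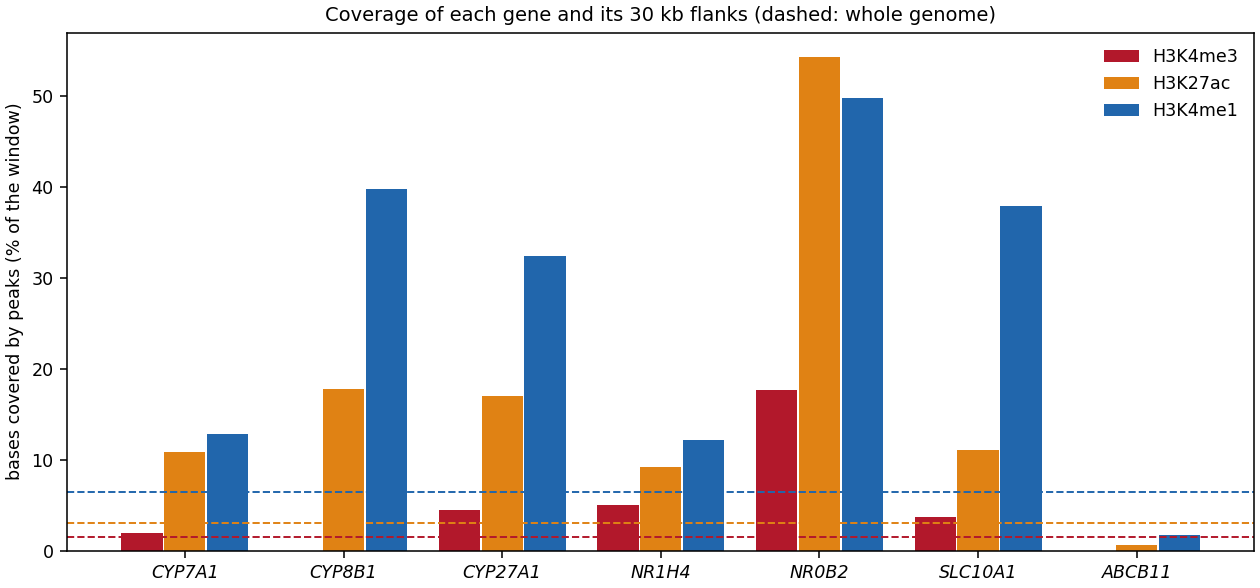
Share of bases covered by peaks of each mark in each gene with its 30 kb flanks, as bars from 0, with the share of the whole genome as a dashed line of the same colour (1.49% for H3K4me3, 3.04% for H3K27ac and 6.47% for H3K4me1). NR0B2 has the highest bars, CYP8B1 has much H3K4me1 and no H3K4me3, SLC10A1 has 38.0% H3K4me1 beside 3.64% H3K4me3, and ABCB11 lies below all 3 lines.

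Of the 54 H3K27ac peaks in the windows, 38 (70.4%) were enhancer-like, against 59.8% of the whole list. The promoter-like ones, which overlapped H3K4me3, were 12 (22.2%), against 31.7%, and 4 overlapped neither methylation. Each of the 11 H3K4me3 peaks overlapped both H3K27ac and H3K4me1, where 74.1% of all H3K4me3 peaks overlapped both and 77.5% overlapped H3K27ac. Among the 133 H3K4me1 peaks, 74 (55.6%) overlapped neither other mark, against 61.6%. Neighbouring peaks of a window are not independent, so these shares are read no further. By gene, H3K4me1 without the other marks made up 15 of 21 peaks at SLC10A1, 22 of 31 at CYP27A1 and 2 of 3 at ABCB11. It made up 9 of 14 at CYP8B1, 17 of 28 at NR1H4, 3 of 8 at CYP7A1 and 6 of 28 at NR0B2.

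At the 3 starts that lay inside an H3K4me3 peak, H3K27ac filled nearly all of that peak and H3K4me1 less of it. H3K27ac covered 93.5% of the H3K4me3 peak at CYP27A1, 95.0% at NR1H4 and 100% at NR0B2. H3K4me1 covered 45.1%, 17.8% and 32.4% of them. Over the 9779 H3K4me3 peaks in the upper 40% by signal value, the medians were 89.2% for H3K27ac and 35.2% for H3K4me1. The longest stretches without H3K4me1 under these peaks were 2276 bp at CYP27A1, 3769 bp at NR1H4 and 2098 bp at NR0B2. At NR1H4 and NR0B2 that stretch lay past the start, in the direction of transcription, while at CYP27A1 it spanned the start.

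The rank of the strongest H3K27ac peak within 30 kb was in the top 10% of the list for 4 of the 7 genes: SLC10A1 (98.3rd percentile), CYP27A1 (98.0th), NR0B2 (96.2nd) and NR1H4 (92.6th). Tiles of the median window length, 81.5 kb, held such a peak in 14.3% of cases, and tiles of the lengths of these 7 windows in 11.8% (NR0B2) to 23.5% (ABCB11), regions without genes included. For SLC10A1 that peak was the one downstream of the gene. CYP8B1 (84.4th), CYP7A1 (77.5th) and ABCB11 (60.0th) followed, and for CYP7A1 and CYP8B1 it was also a peak outside the gene. At the starts alone the order was CYP27A1, NR0B2, NR1H4, CYP8B1 (73.1st) and CYP7A1 (41.9th), with no H3K27ac peak at SLC10A1 or ABCB11.

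**Figure D4:**
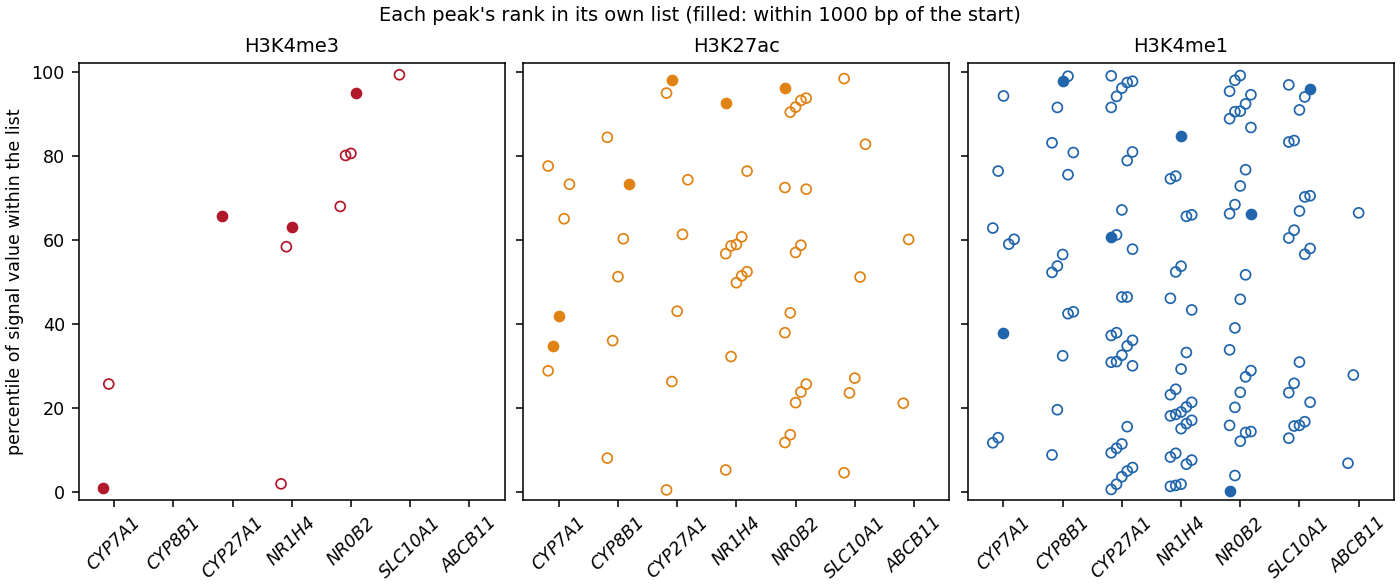
Percentile of the signal value of each peak within its own list (y axis) for the 7 genes (x axis), in 1 panel a mark, with peaks within 1000 bp of the start filled. For H3K27ac the filled points of CYP27A1, NR0B2 and NR1H4 lie above 90, that of CYP8B1 is at 73.1, those of CYP7A1 are at 34.8 and 41.9, and SLC10A1 and ABCB11 have none.

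The distance of 30 kb decided which peaks were counted. Just inside it were an H3K27ac peak at CYP27A1 (29948 bp from the gene, signal value 2.19), an H3K4me1 peak at NR1H4 (29894 bp, 2.05) and the H3K4me1 peak of 7410 bp at CYP27A1 (29879 bp, 8.86), most of which lay outside the window, and just outside an H3K4me1 peak at CYP8B1 (30035 bp, 5.15) and an H3K4me1 peak at NR1H4 (30314 bp, 2.62).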

How the data were processed

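Per the labels' protocols, fixed HepG2 cells were sonicated, immunoprecipitated with antibodies to the 3 marks or with anti-mouse IgG, and sequenced as paired reads. The submitters' processing notes name MACS2 and hg19. Version, settings, treatment of duplicate reads and use of the controls are not given in the sources used here. The authors deposited 1 peak list per mark, pooled over replicates by its name. The signal of each peak is the authors' own, taken from the column that MACS2 uses for fold enrichment, with no scale named. Each peak also has a deposited −log10 p-value and −log10 q-value. Peaks with a q-value above 0.05 numbered 42 (H3K4me3), 436 (H3K27ac) and 224 (H3K4me1) and were kept.

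Peaks on chromosomes 1 to 22 and X were counted in a window or at a start, or as overlapping, from 1 bp shared. Coverage was set beside non-overlapping tiles of the window's length, up to the last peak of each chromosome. All 7 genes were named, each with its nearest and strongest peak of each mark, and further peaks were chosen after their values were seen. The members and lists were chosen with earlier results of these data known. Planned counts at other bile acid genes and cell type markers were not run, since other gene starts on GRCh37 were not used here. RefSeq (GRCh38.p14) gave neighbour names and promoter sequences only. Gene lengths differed between the builds' annotations by 398 bp for CYP27A1, 371 bp for SLC10A1 and 7550 bp for ABCB11, so their starts may not be the same base. The overlap code was tested on simulated data. Python 3.11.15, numpy 2.4.6, pandas 2.3.3 and matplotlib 3.10.9 were used.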

Additional observations from a re-analysis of the deposited data

How the results depend on the processing

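Peak counts followed the distance, the threshold and joining by construction. At 10 kb there were 7 H3K4me3, 31 H3K27ac and 75 H3K4me1 peaks, with 18 enhancer-like and 41 H3K4me1-only ones, and at 100 kb 33, 126 and 295, of which 170 H3K4me1 peaks overlapped neither other mark, 81 H3K27ac peaks were enhancer-like and 31 promoter-like. A −log10 q-value of at least 5 left 83 H3K4me1 peaks, 36 of them H3K4me1-only. Joining peaks within 1000 bp left 33 H3K27ac and 67 H3K4me1 peaks, and the stronger 50% of each list 32 and 62. Coverage at 10 kb was 4.82% (H3K4me3), 10.7% (H3K27ac) and 17.4% (H3K4me1), at 100 kb 4.05%, 12.0% and 22.3%, and with the stricter q-value 3.80%, 12.9% and 18.1%. The numbers of starts with each mark stayed within 1.5 times under each alternative run. H3K4me3 was at 3 starts without CYP7A1 for the stricter q-value and the stronger 50%, and without NR1H4 when summits were placed instead of peaks. The number of genes with H3K27ac in the top 10% was 4 under each alternative run, including ranks by −log10 p-value and within the chromosome. No paired analysis was possible because the lists pool the replicates, and leaving out a replicate was not possible for the same reason. Depth is unknown, so a missing peak, as at ABCB11, means only that none was called.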

Other observations

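The distance from the start to the nearest peak in the top 10% of a list differed between the genes. No genome-wide level of such distances was computed, so none is read here as near or far. From the starts of CYP27A1, NR1H4 and NR0B2, the nearest H3K27ac peak in the top 10% of the list was the one over the start itself. It was 28.6 kb away at SLC10A1, 70.2 kb at CYP8B1, 158.0 kb at CYP7A1 and 552.5 kb at ABCB11. In these 4 cases the peak was promoter-like. Of the 1000 H3K27ac peaks closest in signal value to the one at the NR0B2 start, 94.1% overlapped H3K4me3, and for CYP27A1 97.4%. An overlap with H3K4me3 was therefore common at such strength. For H3K4me1 the nearest peak in the top 10% lay over the start at CYP8B1 and SLC10A1, within 1.07 kb at NR0B2 and 8.33 kb at CYP27A1, and at 29.0 kb for CYP7A1, 36.3 kb for NR1H4 and 454.0 kb for ABCB11. NR1H4 thus had no H3K4me1 peak in the top 10% in its window, although the one over its start was at the 84.7th percentile. CYP8B1 and SLC10A1, with no H3K4me3 at the start, had such a peak directly over it. For H3K4me3 the nearest peak in the top 10% lay over the start only at NR0B2. It was 28.1 kb away at SLC10A1, 220.6 kb at CYP8B1, 379.6 kb at CYP27A1, 782.3 kb at ABCB11, 805.5 kb at NR1H4 and 1505.3 kb at CYP7A1.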
